A study of Homo sapiens with 4 samples.

Results

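The TGF-β signaling pathway carries its own brakes, and 10 genes for such brakes and related regulators were examined for m6A in MDA-MB-231 cells. They include the ubiquitin ligase genes SMURF1, SMURF2 and NEDD4L and the nuclear co-repressor genes SKI, SKIL, TGIF1 and TGIF2. The others are the membrane inhibitor genes PMEPA1 and BAMBI, and LTBP1, whose product holds the latent ligand in the matrix. All 10 were listed by name as regulators of SMAD signaling, with earlier results of these data known. They were found in the peak list through their Ensembl gene IDs. Of 10140 gene IDs with an m6A peak in the list, 8 belonged to these 10 genes, and together they carried 14 of the 20261 peaks. NEDD4L and LTBP1 had no listed peak.

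m6A-seq was carried out in MDA-MB-231, an established human triple negative breast cancer line, with 2 libraries of m6A-immunoprecipitated (IP) poly(A) RNA and 2 libraries of input RNA. All 4 libraries were labelled shNS, and the labels name no TGF-β treatment. The sample titles and the protocol give an anti-m6A antibody for both IP libraries, although their treatment field names YTHDC1. The deposited list has 1 score per peak for the 4 libraries combined, so no value per library, no spread between replicates and no read count stands behind any number here.

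TGF-β binds a pair of receptor kinases that phosphorylate SMAD2 and SMAD3, which then enter the nucleus with SMAD4 and switch target genes on or off. Several targets feed back on the pathway: ubiquitin ligases mark receptors and SMADs for degradation, membrane proteins keep SMADs or ligands away from active receptors, and nuclear co-repressors bring histone deacetylases to SMAD-bound DNA. In breast cancer cells this pathway is best known for promoting epithelial to mesenchymal transition and invasion.

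The score was read as the p-value that the authors' peak caller gave for IP against input, and is also given as −log10 score, on which a larger number is a stronger peak. The file does not define it, and an FDR is possible. The score depends on the number of reads as well as on enrichment, so it is not a level of methylation and was not used as one. Strand matters for reading it, since the median strongest score per gene over the whole list was 1e-06 for 3516 plus-strand genes and 4e-22 for 6624 minus-strand genes. Each gene was therefore ranked among listed genes of its own strand, and the rank is given as the percentage of those genes whose strongest score was as small or smaller, so that a low percentage is a strong rank. Why the strands differ was not tested.

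A peak was listed for 3 of 3 minus-strand genes of the group (SMURF1, SMURF2, PMEPA1) and for 5 of 7 plus-strand genes (SKI, SKIL, TGIF1, TGIF2, BAMBI). Among annotated protein-coding genes, 55.6% on the minus strand and 29.3% on the plus strand had a peak, whatever their expression. The strongest scores of the minus-strand genes lay between 1.6e-76 and 7.9e-29, and those of the plus-strand genes between 2e-12 and 6.6e-05, so the strands did not overlap. Once ranked within their strand they did overlap, from 26.4 to 44.8% on the minus strand and from 28.5 to 68.7% on the plus strand. The median rank of the 8 genes was 42.2%, close to the middle of the list.

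**Figure D1:**
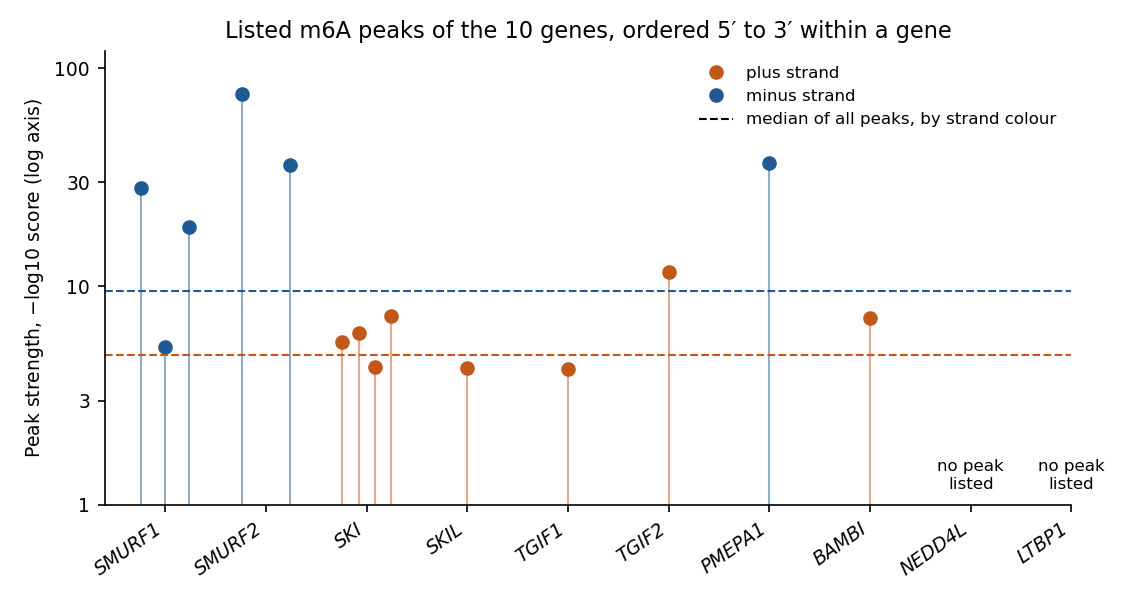
Each point is 1 listed m6A peak, with −log10 score on a logarithmic axis and peaks ordered 5′ to 3′ within a gene; dashed lines mark the median peak of each strand over the whole list (4.85 plus, 9.49 minus). Of the 6 minus-strand peaks, 5 lie above the minus-strand median and the middle SMURF1 peak lies below it at 5.28, while NEDD4L and LTBP1 have none.

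Of the ubiquitin ligase genes, SMURF2 and SMURF1 had peaks and NEDD4L had none. SMURF2, a HECT-type ligase that SMAD7 recruits to the TGF-β receptor, had the strongest peak of the group. It carried 2 peaks with 690 spliced bases in total, on the minus strand of chromosome 17. The first covered 64662098 to 64662307, was 210 bases long and had a score of 1.6e-76 (−log10 score 75.8). The second covered 64545424 to 64545903, was 480 bases long and had a score of 7.9e-37 (36.1). Between them lay 116194 genomic bases without a peak, so that 1 peak marked the start and the other the last part of the gene. The stronger SMURF2 peak was at the 5′ end, whereas in the 6 listed genes other than SMURF2 and SKIL the strongest peak was toward the 3′ end. The rank of SMURF2 rests on its 5′ peak. The −log10 score of its other peak (36.1) was close to that at 40% of minus-strand genes (36.6). SMURF2 ranked at 26.4% of minus-strand genes, ahead of TGIF2 at 28.5% of plus-strand genes. This order turned among protein-coding genes (31.3% for SMURF2, 27.7% for TGIF2), among genes with the same number of peaks (29.6% and 21.2%, with PMEPA1 at 23.9%) and without peaks overlapped on the opposite strand (25.8% and 22.2%).

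The first peak of SMURF2 ended exactly on the first base of the RefSeq gene. Of 5110 minus-strand protein-coding genes with a located peak, 7.10% had a peak that reached the annotated first base. The sequence under the peaks of the group was not analysed here.

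SMURF1, the paralogue of SMURF2 and a ligase for BMP and TGF-β pathway SMADs, carried 3 peaks with 721 spliced bases on the minus strand of chromosome 7. From 5′ to 3′, the first covered 99029380 to 99029679 (300 bases, score 7.9e-29) and the second 99029111 to 99029261 (151 bases, score 5.2e-06). The third covered 99028603 to 99028872 (270 bases, score 1.6e-19). The outer pair ranked at 29.0% and 36.1% of minus-strand peaks and the middle peak at 67.0%, and all 3 fell within 1077 bases, separated by gaps of 118 and 238 bases. SMURF1 had no peak at its start, in contrast to SMURF2. It ranked at 44.8% of minus-strand genes by its strongest score. Against minus-strand genes that also had 3 peaks it ranked at 59.9%.

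NEDD4L, another HECT ligase that targets activated SMAD2 and SMAD3, had no listed peak anywhere in its span of 357315 bases on the plus strand of chromosome 18. The list gives no expression, so a transcript without m6A, one that was weakly expressed and one with too few reads for a call cannot be told apart.

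The co-repressor genes all carried a peak, and all were on the plus strand. SKI, which binds the SMAD complex and recruits NCOR1 and histone deacetylases, had the most peaks of the group, 4 with 902 spliced bases on chromosome 1. Only 5.26% of plus-strand genes had 4 or more peaks, and 6% had as many bases under peaks. The first SKI peak, 2229485 to 2229605, was 121 bases long (score 2.6e-06) and began 1166 bases after the annotated start. The other peaks covered 2307073 to 2307462 (390 bases, score 7.4e-07), 2307821 to 2308030 (210 bases, score 5.4e-05) and 2308209 to 2308389 (181 bases, score 4.5e-08). The −log10 scores of the SKI peaks ran from 4.27 to 7.35, against a median of 4.85 for plus-strand peaks, and from 58.5% to 32.2% by rank among them. By its strongest peak SKI ranked at 41.7% of plus-strand genes, and at 73.6% among the 106 plus-strand genes that also had 4 peaks. SKI was thus far up its strand by number of peaks and by their summed bases, which grow with that number, and near the middle by score. By length, its single peaks stood between 10.5% and 79.0% of plus-strand peaks.

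SKIL, the close relative of SKI that is also known as SnoN, had 1 peak on chromosome 3, 170360354 to 170360534, of 181 bases (score 6e-05). It began 2639 bases after the annotated start and 36315 bases before the 3′ end. Both SKI and SKIL thus had a peak in the first 10% of the gene, but the 3 peaks near the 3′ end of SKI had no counterpart in SKIL. SKIL ranked at 68.5% of plus-strand genes.

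TGIF2, a homeodomain protein that represses SMAD-bound promoters, had the strongest plus-strand peak of the group, on chromosome 20 at 36591202 to 36591412 (211 bases, score 2e-12). It ranked at 28.5% of plus-strand genes. Its paralogue TGIF1 had 1 peak of 150 bases on chromosome 18, 3457706 to 3457855 (score 6.6e-05), the weakest among the strongest peaks of the 8 genes, and ranked at 68.7%. The −log10 scores of this pair were 11.7 and 4.18. Both peaks lay at a similar distance from the 3′ end of their gene, 2538 bases for TGIF2 and 2123 bases for TGIF1.

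Both membrane inhibitor genes had a single peak toward the 3′ end. PMEPA1, which encodes a TGF-β-induced membrane protein that sequesters SMAD2 and SMAD3, had the longest peak of the group, 568 bases on the minus strand of chromosome 20 (57651944 to 57652511, score 1.3e-37). Only 14.9% of minus-strand peaks were this long, and PMEPA1 ranked at 39.9% by score. Among minus-strand genes that also had a single peak, it ranked at 23.9%. BAMBI, a pseudoreceptor without a kinase domain that blocks receptor pairing, had a peak of 238 bases on the plus strand of chromosome 10 (28682190 to 28682427, score 7.2e-08). This score lay just above the list median of 5.2e-08, that of the strongest SKI peak just below it at 4.5e-08, and the ranks of BAMBI (42.8%) and SKI (41.7%) were almost equal. With no replicate error, neighbours this close in the order cannot be separated.

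LTBP1, which binds latent TGF-β and anchors it in the extracellular matrix, had no listed peak in its span of 452557 bases on the plus strand of chromosome 2. LTBP1 and NEDD4L were the longest genes of the group. Of 343 annotated plus-strand protein-coding genes that span at least 300000 bases, 22.7% had a peak, against 29.6% of the shorter ones.

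**Figure D2:**
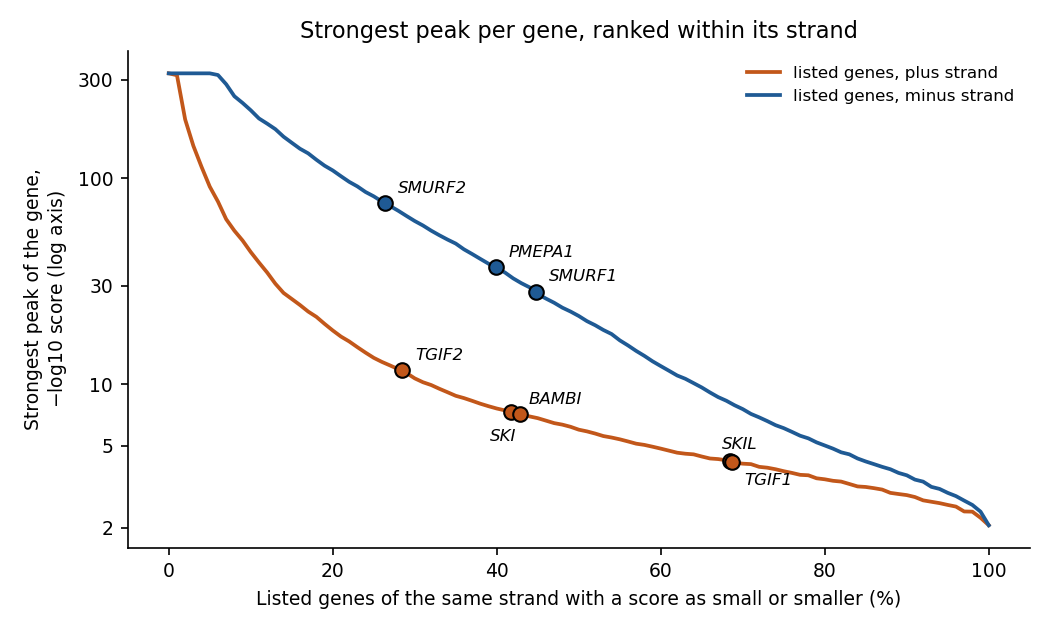
Strongest −log10 score of each listed gene (logarithmic axis) against its rank within its strand, in percent, with 1 curve per strand and the 8 genes marked. Of the 8 genes, SMURF2 (26.4%) ranks highest on the minus strand and TGIF2 (28.5%) on the plus strand, and SKIL (68.5%) and TGIF1 (68.7%) are in the weaker part of the plus-strand curve.

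SMURF1, SMURF2, PMEPA1, SKI and TGIF2 had a strongest score at or under the list median of 5.2e-08, which made 5 of the 8 listed genes. This was 3 of 3 listed minus-strand genes, against 70.7% of all listed minus-strand genes, and 2 of 5 listed plus-strand genes, against 42.1%. Both counts were near their background, so by this measure the group did not stand apart from other listed genes. Over single peaks, 7 of 14 were at or under the list median.

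No member peak overlapped a peak on the opposite strand, and none shared a base with a peak of another gene on its own strand. In the whole list, overlap with the opposite strand was found for 17.8% of peaks of plus-strand genes and 7.07% of those of minus-strand genes. The share for overlap on the same strand was not counted here. All 14 peaks were in 1 block, so none ran across a listed exon junction. The share of such peaks in the whole list was not counted here, so this does not set the group apart.

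Along the gene, the peaks lay near the annotated ends, as did most listed peaks on protein-coding genes. In 9 of 14 peaks (64.3%, 95% Wilson interval 38.8 to 83.7%, which covers counting error only and treats peaks as independent) the midpoint was in the last 10% of the RefSeq span. This was 4 of 8 plus-strand and 5 of 6 minus-strand peaks, against 36.4% and 37.8% of all peaks on protein-coding genes of these strands. The 9 peaks came from only 5 genes, with 3 each from SKI and SMURF1, so they are not independent. A further 3 peaks, those at the start of SMURF2, SKI and SKIL, were in the first 10%, which held 13.2% of plus-strand and 12.1% of minus-strand peaks. The peaks of TGIF2 and BAMBI, with midpoints at 87.1% and 88.5% of the span, fell just short of the last 10%.

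**Figure D3:**
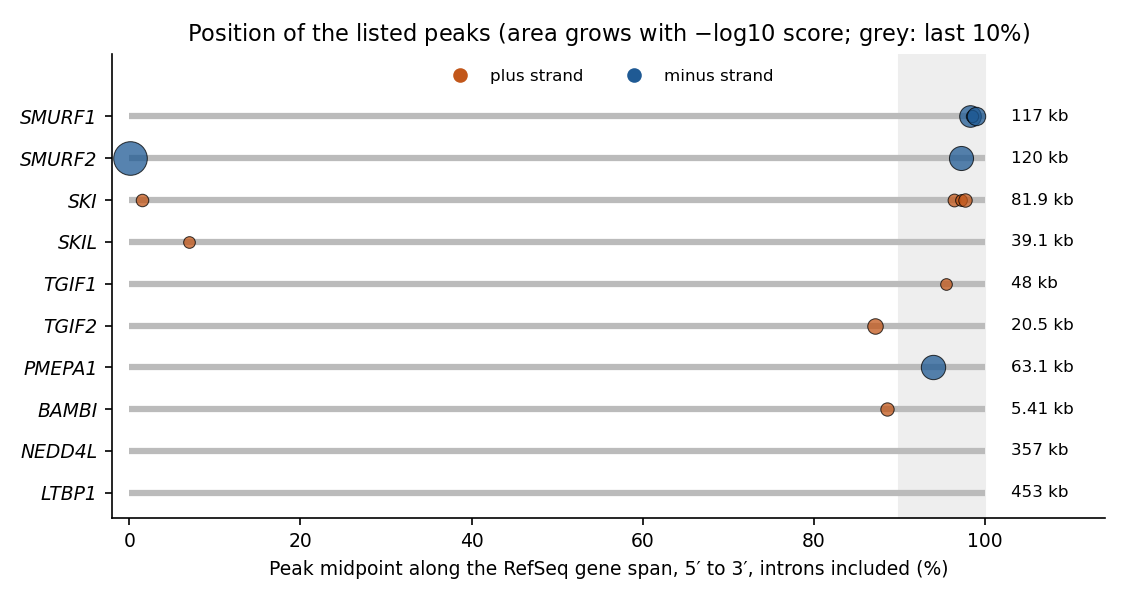
Midpoint of each listed peak along the RefSeq span of its gene in percent, 5′ to 3′ with introns included; point area grows with −log10 score, the last 10% is shaded, and the span is printed at the right. Points crowd at the right end for SMURF1, SMURF2, SKI, TGIF1 and PMEPA1, and SMURF2, SKI and SKIL have a point near the left end.

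Counted in bases, each of the 14 peaks lay within 5000 bases of an annotated end of its gene, 11 of them near the 3′ end. In the whole list 72.5% of plus-strand and 68.8% of minus-strand peaks on protein-coding genes were this close to an end. A peak within 5000 bases of the 3′ end was present in 7 of the 8 genes, with SKIL as the exception. Such a peak was present in 65.7% of listed plus-strand and 75.1% of listed minus-strand protein-coding genes, so 4 of 5 and 3 of 3 genes were not far from what the list shows in general. For BAMBI, whose whole span is 5412 bases, this distance has little meaning. Distances from the 3′ end ran from 505 bases for BAMBI to 3548 bases for PMEPA1. Which of these peaks lie in the 3′UTR and which in coding sequence was not analysed here.

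SKI and SMURF1 each had 3 separate peaks packed near the 3′ end. The SKI peaks spanned 1317 bases with gaps of 358 and 178 bases, and held 86.6% of all bases under peaks in this gene. Those of SMURF1 spanned 1077 bases and held all of them. At least 3 peaks within 2000 bases occurred in 5.46% of listed plus-strand genes and in 8.77% of listed minus-strand genes, and in 1 gene of the group on each strand.

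**Figure D4:**
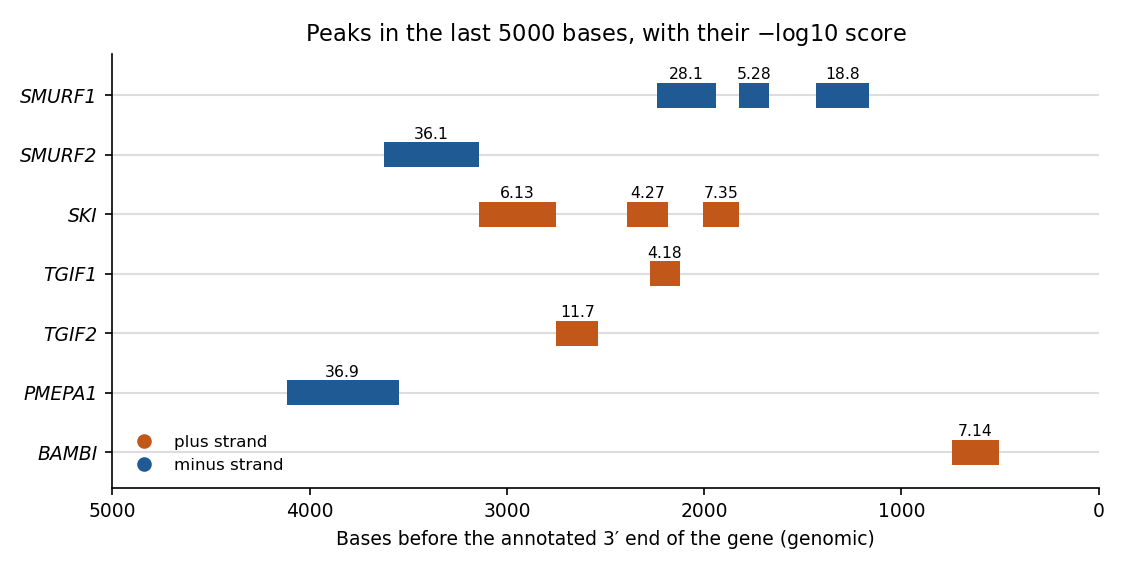
Peaks in the last 5000 genomic bases before the annotated 3′ end, drawn to scale with bar width as peak length and the −log10 score above each bar. SKI and SMURF1 show 3 neighbouring bars each, the peaks of TGIF1 and TGIF2 lie at 2123 and 2538 bases, and the bar of BAMBI is closest to the end at 505 bases.

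Beyond the 10 genes, 42 other genes of the pathway were sorted by role. A peak was listed for 28 of them, and 22 had a strongest score at or under the list median. By strand, a peak was listed for 12 of 22 plus-strand and 16 of 17 minus-strand genes, against 29.3% and 55.6% of annotated protein-coding genes, and 3 genes without a peak had no strand in the tables used here. A score at or under the median was found for 8 of the 12 and 14 of the 16, against 42.1% and 70.7% of all listed genes of these strands. The median rank of the 28 genes within their strand was 31.4%, against 42.2% for the 8. The 28 genes carried 66 peaks and the 8 carried 14, and these ranks were not matched on number of peaks.

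The nuclear co-repressor partners ranked high on their strands. All 9 of 9 had a peak at or under the list median, 6 of 6 on the minus strand, where 70.7% of listed genes did, and 3 of 3 on the plus strand, where 42.1% did. Their ranks ran from 3.84 to 21.5%, which did not overlap the range of 26.4 to 68.7% in the group itself. A rank uses the strongest peak of a gene, and the 9 partners carried 29 peaks against 14 in the 8 genes. The partners were not ranked among genes with the same number of peaks, so this difference was not set aside. They include the proteins that SKI and the TGIF factors bring to DNA. NCOR1, a scaffold for histone deacetylases, had 4 peaks (1e-181). SIN3A, another scaffold of this kind, had 3 peaks with a strongest score listed as 0, too small to be stored, and the deacetylase gene HDAC1 had 2 (6.3e-65). CTBP1 had 5 peaks (1e-211, in a peak overlapped on the opposite strand) and CTBP2 had 2 (1e-237). ZEB1, a SMAD-binding repressor of epithelial genes, had the strongest rank on the plus strand among these partners (3.84%, score 1e-116). The co-repressors SKI, SKIL, TGIF1 and TGIF2 themselves ranked at 41.7, 68.5, 68.7 and 28.5%, below the weakest of the partners, SIN3B at 21.5%. The partners were listed with earlier results of these data known, and NCOR1, HDAC1, CTBP1, CTBP2 and SIN3B are named here after their values were seen, so this comparison is a description and was not tested.

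Of the other ubiquitin ligases, 4 of 8 genes had a peak (plus strand 3 of 4, minus strand 1 of 2). For this and the following roles, the shares of annotated protein-coding genes with a peak are 29.3% (plus) and 55.6% (minus), and so few genes per strand do not set a role apart. WWP2 (4.8e-05) and ITCH (1.5e-05), HECT ligases related to the SMURF proteins, had 1 weak plus-strand peak each, and WWP1 and NEDD4 had none. TRIM33, which binds and ubiquitinates SMAD4, had 2 peaks (1e-82). The single STUB1 peak was listed as 0 but was overlapped by a peak on the opposite strand, so the list alone does not assign it. Among deubiquitinases, which reverse this mark, 4 of 5 genes had a peak (plus strand 2 of 3, minus strand 2 of 2), and the smallest score was that of USP4 (5e-96).

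Receptor-level inhibitors had a peak in 6 of 8 genes (plus strand 2 of 4, minus strand 4 of 4). The inhibitory SMAD genes SMAD6 (3 peaks, 7.9e-59) and SMAD7 (3 peaks, 3.2e-37) ranked at 7.74% and 40.1% on their strands, and SMAD7 was level with PMEPA1 (39.9%). LDLRAD4, the closest relative of PMEPA1, had no peak. For the latency proteins and extracellular inhibitors 5 of 12 genes had a peak, 2 of 8 on the plus strand, 3 of 3 on the minus strand and none for DCN, which had no strand in the tables. The strongest rank of this role was that of THBS1 on the plus strand (1 peak, 4e-19, 19.9%). THBS1 encodes the matrix protein thrombospondin-1, and its place in this role does not mean that it inhibits the pathway. LTBP2 (3 peaks, 1.3e-41) and LTBP3 (7 peaks, 7.9e-30), both on the minus strand, were listed, whereas LTBP1 and LTBP4, both on the plus strand, were not.

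**Figure D5:**
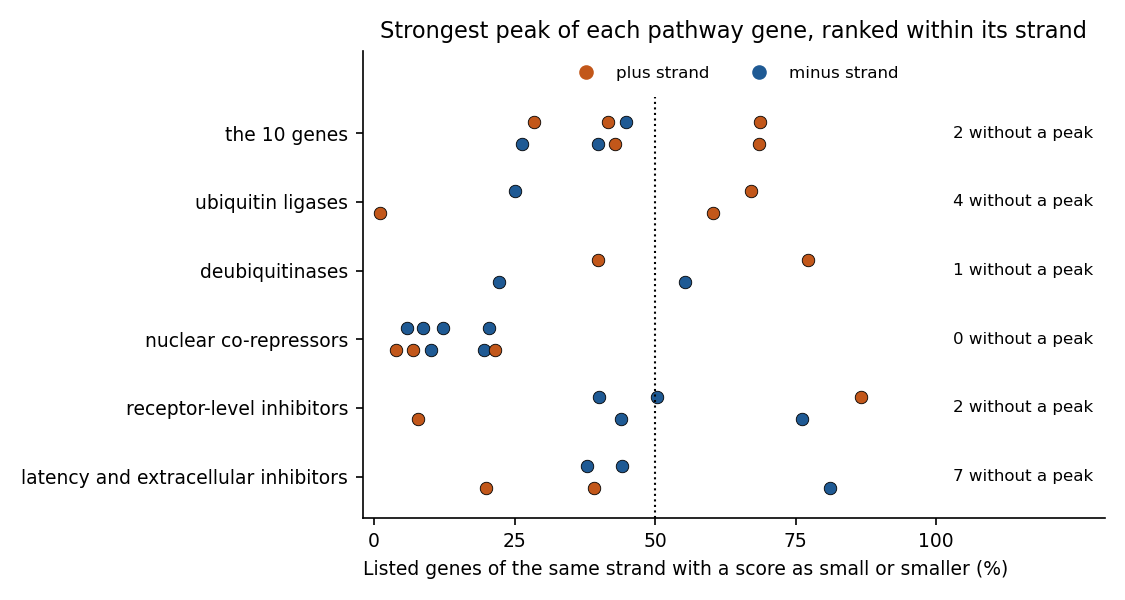
Rank of the strongest peak of each gene among listed genes of its strand, in percent, by role in the pathway, with the number of genes without a peak at the right and the middle of the strand dotted. The 9 nuclear co-repressor partners lie between 3.84 and 21.5%, left of all 8 listed genes of the group, which lie between 26.4 and 68.7%. Ranks are not matched on number of peaks.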

How the data were processed

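Per the labels and the study's methods, reads from 2 IP and 2 input libraries were mapped with STAR to GENCODE v33 annotations (hg38), and the authors called peaks with exomePeak at default settings and filtered them on fold enrichment and FDR. The deposited score was taken as a p-value of the caller; this reading rests on its values, since the header does not define it. A score of 0 was ranked at a −log10 score of 323. Depth is unknown.

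From this list, peak coordinates were written from 1, gene IDs were matched to symbols without their version (all 10 genes matched), and spans, starts and biotypes came from RefSeq (GRCh38.p14). Strand for genes without a peak came from the annotated starts, which left 4213 of 20056 protein-coding genes out of the shares of annotated genes. No strand-specific start was given for SKI. Ranks count ties. Overlap required 1 shared base. No test was run: replicates were combined before deposit, and genes are not replicates. Scripts were checked on simulated peaks, using Python 3.11.15, pandas 2.3.3 and scipy 1.17.1.

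The 10 genes and the list of 42 were chosen with earlier results of these data known. Named were all 10 genes, each beside its paralogue, and for each role the genes with the strongest peaks and those without one, with NCOR1, HDAC1, CTBP1, CTBP2, SIN3B, WWP2, ITCH and LTBP3 added after their values were seen. The planned motif count over all peaks needs a genome sequence and was not run. A further gene of the list and a sequence are not reported here.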

Additional observations from a re-analysis of the deposited data

How the results depend on the processing

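Keeping only peaks no weaker than the median of the list left 5 of the 8 genes and 7 of the 14 peaks, and put the median rank within strand at 63.4%, since the restriction removes the weaker genes from the comparison. That median (42.2%) was 42.1% without the records at the end of the list, where chromosome order begins anew, and 37.9% without peaks overlapped on the opposite strand. It was 44.5% among protein-coding genes, 44.9% among genes with the same number of peaks, 50.1% by summed peak length and 55.1% among genes of both strands. The cause of these shifts was not tested. No member peak shared a base with another peak of its gene, stood among those records or was overlapped. Merging, the omission of those records and removal of overlapped peaks therefore touched no member peak. The counts of genes (8), peaks (14) and genes at or under the median (5) stayed as they were, which is no check on them. The share of peaks in the last 10% of the span was 71.4% (5 of 7) among peaks no weaker than the median of the list. It was 64.3% under the alternatives that kept the same 14 peaks, which could not change it. By another measure, a peak within 5000 bases of the annotated 3′ end, the share was 78.6% (11 of 14). No paired analysis was possible because replicates had been combined into 1 score per peak, and for the same reason no replicate could be left out. With depth unknown, the absence of NEDD4L and LTBP1 cannot be read further.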
